A study of Mus musculus with 19 samples.

Results

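The comparison described here is the diet by fasting difference: for each gene, the response to 24 hours without feeding in mice given Ensure, minus the same response in mice given a high-fat diet (HFD). All 19 of the 19 RNA sequencing libraries of the series enter it. Groups were read from the titles and labels. HFD fed (titles beginning ALO, n = 4) and HFD fasted (ALOneg, n = 4) came from animals on the diet labelled HFD 60%, and Ensure fed (OIO, n = 6) and Ensure fasted (OIOneg, n = 5) from animals given Ensure. Every library is whole perigonadal adipose tissue of the C57BL/6 strain. Fed animals were sampled at peak weight, and fasted animals after a further 24 hours without food. Sex, age, the route and amount of Ensure and the number of animals per library are not stated in the labels used here. Diet below therefore stands for the whole model of weight gain. A library is called by its group and its title number.

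In fed adipose tissue insulin keeps fatty acid and cholesterol synthesis on and lipolysis off. When food is withheld insulin falls while glucocorticoids and sympathetic signals rise, and the tissue turns from storing lipid to releasing it. Glucocorticoid receptor targets such as Fkbp5 and Tsc22d3, insulin-dependent genes such as Srebf1 and Fasn, and fuel-switch genes such as Pdk4 are therefore usual readouts of a fast. A difference of responses near 0 means that a gene moved alike in both diets, whether it moved or not. A positive value means that the Ensure response was more upward than the HFD response, or less downward.

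Counts in genes ran from 12823469 to 22552633 per library (median 20228174). The 16 adipocyte markers together were at 24058 to 51576 counts-per-million (CPM) in HFD libraries and at 18030 to 45223 CPM in Ensure libraries, and none of the 16 was at 0 in any group. Reproductive tract RNA was also present: the 15 epididymis and sperm markers summed to 15.8 to 38.3 CPM in HFD fed, 13.5 to 314 in HFD fasted, 11.6 to 661 in Ensure fed and 25.9 to 9899 in Ensure fasted libraries, with none at 0 in any group. The libraries over 100 CPM were HFD fasted 24, Ensure fed 10 and 12, and Ensure fasted 2 and 5. All HFD libraries were sequenced on lane 7. Ensure fed libraries were on lanes 5 (1 library), 6 (4) and 7 (1) and Ensure fasted libraries on lanes 5 (4) and 6 (1), so in Ensure the lane goes largely with fasting. In whole tissue, fewer cells of a type and less RNA per cell cannot be told apart. The labels do not say whether replicates are separate animals, and p-values measure only the spread between these libraries.

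No gene passed edgeR's quasi-likelihood test for the difference of responses at an adjusted p under 0.05, 0% of the 16015 genes tested, and the smallest adjusted p was 0.302. At an unadjusted p under 0.05 there were 1234 genes (7.71%), against the 801 that 5% of all tests would give. Of these, 767 were higher with Ensure (4.79% of all genes tested) and 467 lower (2.92%). The split depended on the scaling between libraries: 62.2% of the 1234 were higher with TMM scaling, whereas with DESeq2 size factors 1269 genes were at that p and 48.5% of them were higher (615 higher, 654 lower). DESeq2 itself called 65 genes at an adjusted p under 0.05 (0.406%), 23 higher (0.144%) and 42 lower (0.262%). All 65 had the same sign in edgeR, with unadjusted edgeR p-values up to 0.0162. Limma voom with sample quality weights called 1170 (7.31%; 876 or 5.47% higher and 294 or 1.84% lower), of which 52 were also among the 65, and limma voom without those weights called 0. Genes below are therefore given with their values and with the test that did or did not pass, and "higher" or "lower" refers to the fitted difference.

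The precision of the difference limits what could be seen. Its median standard error was 0.28 on the log2 scale, against 0.21 for the HFD and 0.18 for the Ensure response. The 95% interval lay within 1 log2 unit of 0 for 9254 genes (57.8%) and within 0.5 for 3316 (20.7%). For the other genes tested, on the first measure, the interval reached beyond a 2-fold difference.

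The 2 responses, which share no library, pointed the same way for most genes called in either. After fasting, 195 genes were called with HFD (1.22%; 30 or 0.187% higher and 165 or 1.03% lower) and 3255 with Ensure (20.3%; 1690 or 10.6% higher and 1565 or 9.77% lower). The 1690 genes that rose with Ensure had a median log2 change of 0.81 there and 0.27 with HFD. Of them 84.9% had the same direction with HFD, and 2.96% were at least as large. The 1565 that fell with Ensure had medians of -0.50 and -0.29, with 94.9% in the same direction and 11.2% at least as large. From the other side, the 165 genes that fell with HFD had medians of -0.73 with HFD and -0.72 with Ensure. The direction was shared by 164, and 93 were at least as large with Ensure. The 30 that rose with HFD had medians of 0.95 and 0.54, and 27 shared the direction. Genes picked for passing a test tend to be larger in the diet that picked them, so these medians are descriptions of the 2 responses and not tests of a difference. The share of all genes tested whose 2 responses had the same direction is not given here. Over all genes tested both medians were above 0 (0.06 with HFD and 0.11 with Ensure).

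**Figure D1:**
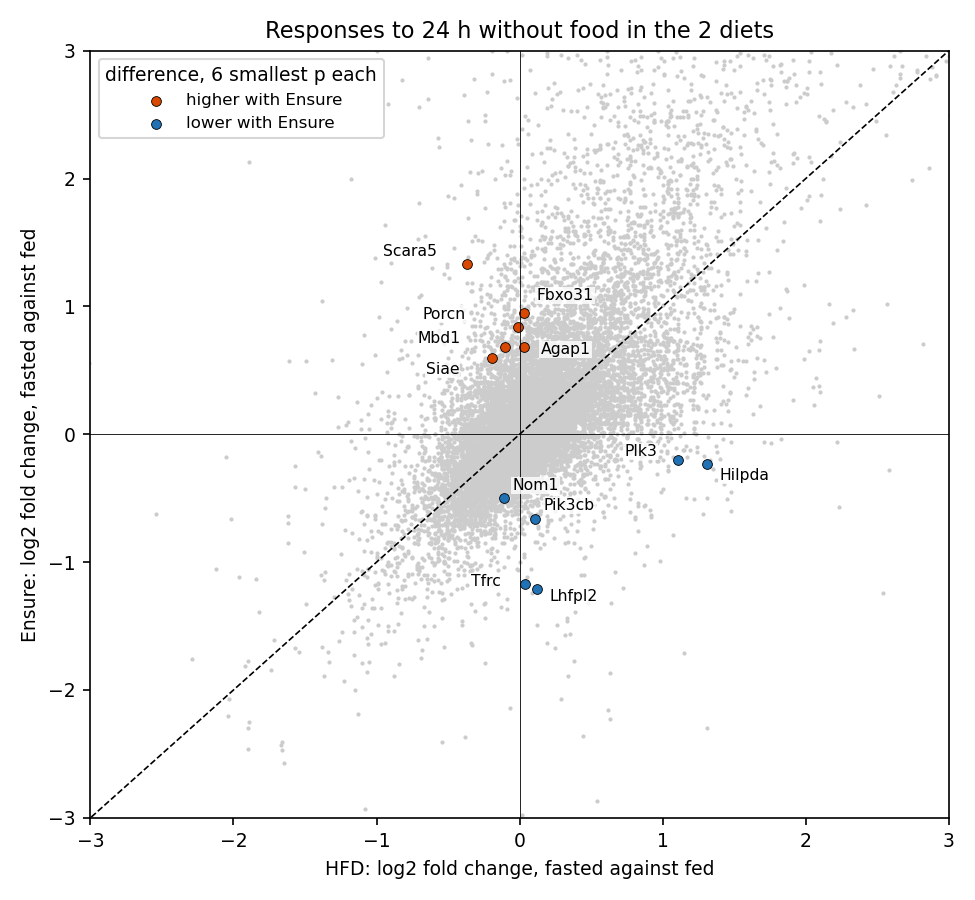
Log2 fold change of fasted against fed libraries with HFD (horizontal) and with Ensure (vertical) for the genes tested. Each grey point is a gene, the dashed line marks equal responses, and the coloured points are the 6 genes of smallest p in each direction of the difference. Axes stop at 3 log2 units, beyond which 507 genes lie in at least 1 diet. The 6 genes higher in the difference lie between -0.37 and 0.03 with HFD and between 0.60 and 1.33 with Ensure, and Plk3 and Hilpda lie at 1.11 and 1.31 with HFD.

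Sorted by the sign and size of the 2 fitted responses, the 1234 genes fell into 685 with opposite signs, 512 with the same sign and a larger Ensure response and 37 with the same sign and a larger HFD response. Of the 1234, 805 were called in the Ensure response and not in the HFD response, 19 in HFD and not in Ensure, 22 in both and 388 in neither. Among the 65 genes of DESeq2, whose own fitted responses were used, 34 had opposite signs, 31 had the same sign with a larger Ensure response and 0 a larger HFD response. Of the 65, 54 were called with Ensure and not HFD, 3 with HFD and not Ensure, and 8 with both. Over all 16015 genes tested, edgeR called 20.3% with Ensure and 1.22% with HFD, and DESeq2 called 4390 and 633 genes. Calls in 1 diet alone therefore lean to Ensure among all genes as well. Genes picked by this contrast also tend to have responses of unlike sign or size, so these counts are descriptions. The same contrast can be read as a gap between the diets that differed between fed and fasted tissue. The gap in group mean level was wider when fed in 620 of the 1234 genes (50.2%), against 42.6% of all genes tested.

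The 6 genes of smallest p in each direction were taken by rule. Those higher with Ensure were Fbxo31, Mbd1, Scara5, Agap1, Porcn and Siae, and those lower were Tfrc, Plk3, Pik3cb, Lhfpl2, Hilpda and Nom1. None passed edgeR (adjusted p from 0.302 to 0.351), and all 12 passed DESeq2 and limma voom with quality weights. The sign of all 12 was the same in each of 31 alternative fits. Without any 1 library their unadjusted p stayed at or below 0.00180. For all 12 the Ensure response kept its sign within lane 5 alone and within lane 6 alone, where 1 side has a single library. The 12 had been chosen for small p in this contrast over the full set of libraries. Their passes in other tools, kept signs and small p on refitting therefore follow in large part from that choice and are no independent support.

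Of the 12, Tfrc and Scara5 carry iron into cells. Tfrc, the transferrin receptor, was at 66.3, 52.2, 58.7 and 47.9 CPM in HFD fed and 63.9, 46.8, 41.5 and 78.7 CPM in HFD fasted libraries. With Ensure it was at 71.5 to 107 CPM (median 98.2) in fed libraries and at 36.5, 49.4, 35.2, 44.7 and 43.7 CPM in fasted ones. Ensure fed libraries were thus the highest, all but 1 above every HFD library, and Ensure fasted libraries lay below all Ensure fed ones, while the HFD groups overlapped. The Ensure response was -1.17 (adjusted p = 1.50e-04), the HFD response 0.04, and the difference -1.20 ± 0.24.

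Scara5, a receptor for ferritin, was at 166, 188, 151 and 235 CPM in HFD fed and 203, 113, 156 and 99.6 CPM in HFD fasted libraries. With Ensure it ran at 60.2 to 91.8 CPM (median 79.2) when fed and at 130, 121, 276, 247 and 209 CPM when fasted. The 6 Ensure fed libraries were below every other library, and the fasted Ensure libraries overlapped with both HFD groups. Scara5 rose by 1.33 with Ensure and had -0.37 with HFD, a difference of 1.70 ± 0.35. Of the other iron genes tested, on a list of 17 written after the values had been seen, Ireb2, an RNA-binding regulator of Tfrc messenger RNA, had a difference of -0.26 ± 0.10. The ferritin chains Fth1 and Ftl1, which have near-identical copies, had -0.60 and -0.80 (unadjusted p = 0.184 and 0.223), Hmox1, which releases iron from heme, had -1.12 (unadjusted p = 0.120), and all 17 together had a median of 0.05.

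Hilpda and Plk3 were the members whose HFD response was the larger. Hilpda encodes a lipid droplet protein that inhibits the lipase Pnpla2 and is induced by hypoxia and fatty acids. It was at 18.7, 18.7, 28.9 and 21.1 CPM in HFD fed and at 48.0, 54.5, 43.9 and 70.1 CPM in HFD fasted libraries, 11.6 to 30.2 CPM (median 20.1) in Ensure fed and 21.1, 10.7, 15.5, 22.8 and 15.6 CPM in Ensure fasted libraries. The 4 HFD fasted libraries stood above all the other 15, and the other 3 groups overlapped. Hilpda rose with HFD (1.31, adjusted p = 0.0240) and had -0.23 with Ensure (adjusted p = 0.494). The difference was -1.54 ± 0.35.

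Plk3, a stress-responsive kinase, was at 8.20, 8.14, 8.98 and 6.46 CPM in HFD fed and 13.5, 16.5, 12.8 and 26.1 CPM in HFD fasted libraries. With Ensure it stood at 7.44 to 11.0 CPM (median 7.93) when fed and 9.17, 7.55, 7.77, 5.53 and 7.10 CPM when fasted. HFD fasted libraries were again above all others, most of all HFD fasted 28. It rose with HFD (1.11, adjusted p = 0.0209) and the difference was -1.32 ± 0.28.

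Among the others, Fbxo31, a component of a ubiquitin ligase, had the smallest p of all genes (1.89e-05). It was at 33.6, 44.0, 30.1 and 34.8 CPM in HFD fed, 35.1, 40.5, 36.8 and 32.8 in HFD fasted, 24.8 to 29.2 CPM (median 27.7) in Ensure fed and 43.0, 49.1, 62.3, 51.7 and 59.0 CPM in Ensure fasted libraries. Ensure fed libraries were below and Ensure fasted ones mostly above both HFD groups, which did not separate. The Ensure response was 0.95, the HFD response 0.03 and the difference 0.92 ± 0.16. Pik3cb, a catalytic subunit of the kinase that carries the insulin signal, was at 51.8, 72.1, 74.1 and 66.2 CPM in HFD fed, 78.9, 77.9, 66.0 and 62.7 in HFD fasted, 65.2 to 79.4 CPM (median 70.9) in Ensure fed and 46.0, 34.8, 50.0, 52.4 and 42.1 CPM in Ensure fasted libraries. Here the Ensure fasted group was low: 4 of its 5 libraries were below all other libraries, and number 8 was above HFD fed 21 alone. Its difference was -0.78 ± 0.17.

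The methyl-DNA binding protein Mbd1 differed by 0.78 ± 0.16, Agap1, a regulator of small GTPases in membrane traffic, by 0.65 ± 0.14, and Porcn, which attaches lipid to Wnt proteins, by 0.84 ± 0.18. Siae, a sialic acid esterase, had 0.79 ± 0.17. Lhfpl2, a membrane protein, had -1.33 ± 0.29 and Nom1, a nucleolar protein, -0.38 ± 0.09. In Mbd1, Lhfpl2 and Nom1 the Ensure fasted libraries stood apart from the other 3 groups, whereas in Agap1 and Porcn the Ensure fed libraries were below all others.

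**Figure D2:**
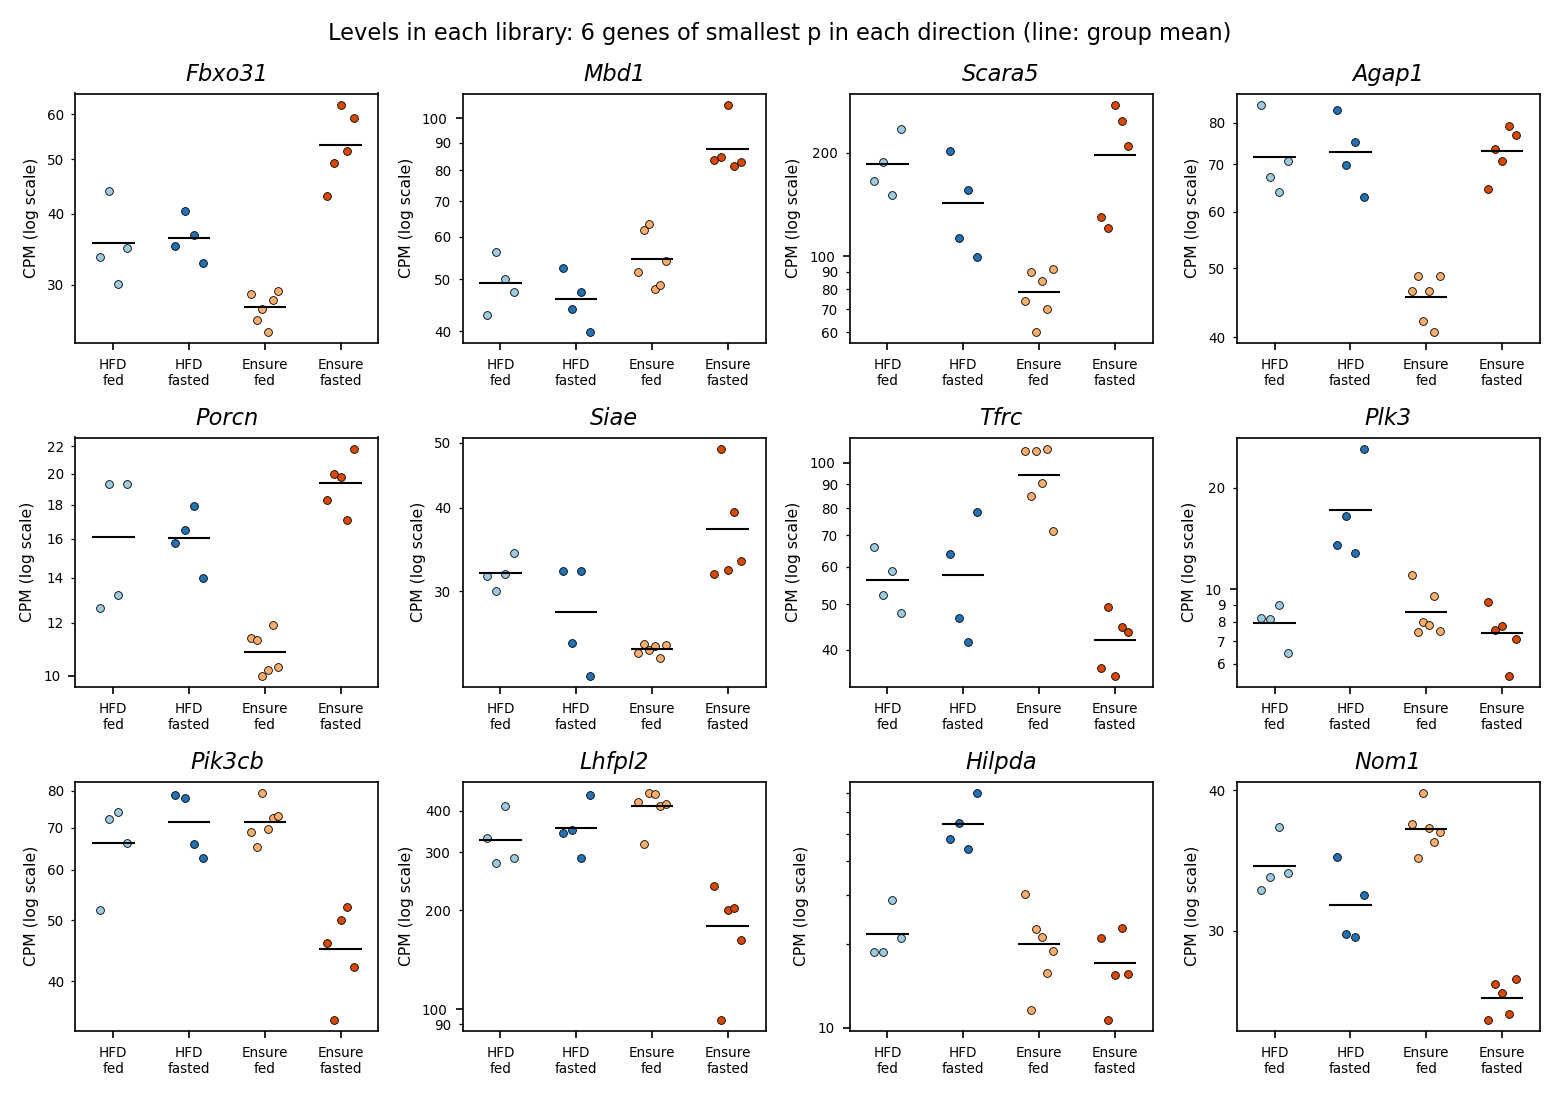
Level of the 12 genes of smallest p in each of the 19 libraries, in CPM on a log axis, by group. Points are libraries and lines are group means. In Hilpda and Plk3 the HFD fasted group is the high one, while in Pik3cb, Lhfpl2 and Nom1 the Ensure fasted group is the low one.

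Among 45 gene lists, to which 3 were added after the values had been seen, the glucocorticoid-responsive list held the largest number of genes on the higher side at an unadjusted p under 0.05. By share it came after the smooth muscle markers (7 of 11, 63.6%), whose count was 0 without Ensure fasted 5. Its 22 genes include direct targets of the glucocorticoid receptor, which carries the hormone signal of fasting into the nucleus. None of the 22 passed edgeR in the difference, and 9 of 22 (40.9%) had an unadjusted p under 0.05 on the higher side and 0 on the lower, against 4.79% and 2.92% of all genes tested. DESeq2 called 0, giving 2 members, Hif3a among them, no adjusted p, and limma voom with quality weights called 9. The median difference was 0.62, from a median response of 0.01 with HFD and 0.60 with Ensure, and over all genes tested these medians were 0.04, 0.06 and 0.11. After fasting 12 members rose and 3 fell with Ensure, and 1 rose and 2 fell with HFD. The list was drawn up with earlier results of these data known, and is no independent evidence of its direction.

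Promoter sequence is shown for the 3 members that hold the element sought here. In the 250 bases upstream of the start site (RefSeq, GRCm38.p6) a palindromic form of the glucocorticoid response element, GNACA and TGTNC parted by 3 free bases and sought on both strands, occurred in 0.44% of 27025 genes. Of the 20 members with such a window 3 held it (15%). They were Map3k6 at chr4:133240602-133240684, Mt1 at chr8:94178960-94179042 and Sgk1 at chr10:21993667-21993749, each on the plus strand and shown 5′ to 3′ with the match in capitals.
Map3k6: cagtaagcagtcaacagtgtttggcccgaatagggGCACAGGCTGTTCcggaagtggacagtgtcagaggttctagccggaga
Mt1: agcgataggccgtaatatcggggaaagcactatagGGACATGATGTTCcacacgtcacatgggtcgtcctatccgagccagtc
Sgk1: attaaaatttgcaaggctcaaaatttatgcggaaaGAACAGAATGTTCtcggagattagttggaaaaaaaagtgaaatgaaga
The difference of responses was 0.72 ± 0.20 in Map3k6, a kinase of stress signalling, 0.67 ± 0.34 in Mt1, a metal-binding protein, and -0.00 ± 0.24 in Sgk1, a kinase downstream of insulin and glucocorticoids. Their 95% intervals were 0.30 to 1.15, -0.04 to 1.38 and -0.51 to 0.50, so that of Mt1 also covers 0 and all 3 overlap. The matches share the pattern and differ in its free bases, and a match says nothing about binding.

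Fkbp5, a co-chaperone of the glucocorticoid receptor and among its most used readouts, was at 75.0, 50.1, 51.8 and 56.2 CPM in HFD fed and 45.2, 84.8, 66.9 and 38.2 CPM in HFD fasted libraries. With Ensure it was at 60.4 to 87.9 CPM (median 75.4) when fed and 183, 309, 171, 149 and 130 CPM when fasted. The 5 Ensure fasted libraries were above all the other 14, which overlapped. Fkbp5 rose by 1.34 with Ensure and had 0.01 with HFD, a difference of 1.32 ± 0.34. Hif3a, a hypoxia-inducible factor that is also on the hypoxia list, was at 6.71, 8.14, 2.69 and 6.97 CPM in HFD fed, 5.58, 7.91, 5.94 and 3.94 in HFD fasted, 2.00 to 4.96 CPM (median 3.23) in Ensure fed and 11.8, 17.7, 10.9, 9.03 and 9.99 CPM in Ensure fasted libraries. Ensure fasted libraries were again above every other one. Its difference was 1.88 ± 0.43.

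Tsc22d3, which encodes the glucocorticoid-induced leucine zipper, was at 152, 160, 169 and 141 CPM in HFD fed, 150, 88.3, 137 and 149 in HFD fasted, 144 to 217 CPM (median 171) in Ensure fed and 203, 149, 349, 322 and 331 CPM in Ensure fasted libraries. Ensure fasted 7, 8 and 17 were far above the other libraries, whereas Ensure fasted 2 and 5, which hold tract RNA, were within the range of Ensure fed. Its difference was 0.90 ± 0.30, and 1.04 without the 5 tract-rich libraries. Klf15, a transcription factor of amino acid use, ran the other way in both diets. It was at 39.2, 54.7, 47.6 and 40.4 CPM in HFD fed and 18.2, 18.7, 20.0 and 12.7 in HFD fasted libraries, and at 50.5 to 73.7 CPM (median 57.2) in Ensure fed and 30.4, 25.1, 40.9, 40.1 and 45.5 CPM in Ensure fasted ones.

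Klf15 thus fell with both HFD (-1.38, adjusted p = 0.00277) and Ensure (-0.70, adjusted p = 0.00515), and its positive difference of 0.69 ± 0.24 stands for a smaller fall with Ensure. Sgk1 rose with both diets, by 0.77 and 0.77. Its HFD fasted libraries were at 129, 96.4, 79.5 and 142 CPM, above all HFD fed ones at 62.7, 62.5, 74.3 and 62.2 CPM. The remaining members at an unadjusted p under 0.05 were Zbtb16 (1.29 ± 0.42), a transcriptional repressor, Map3k6, Klf9 (0.65 ± 0.27), a factor induced by glucocorticoids (0.38 without HFD fasted 28), Cebpd (0.62 ± 0.21), a factor of adipocyte differentiation, and Errfi1 (0.62 ± 0.25, and 0.33 without the 5 tract-rich libraries), an inhibitor of the EGF receptor. Per1, a clock gene, had 0.37 ± 0.25 and Pdk4, which holds glucose out of oxidation, 0.98 ± 0.49; in both the interval covers 0. Leaving out any 1 library left 7 to 10 members at that p, and the count of 9 held to within 1.5 times in every alternative fit.

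**Figure D3:**
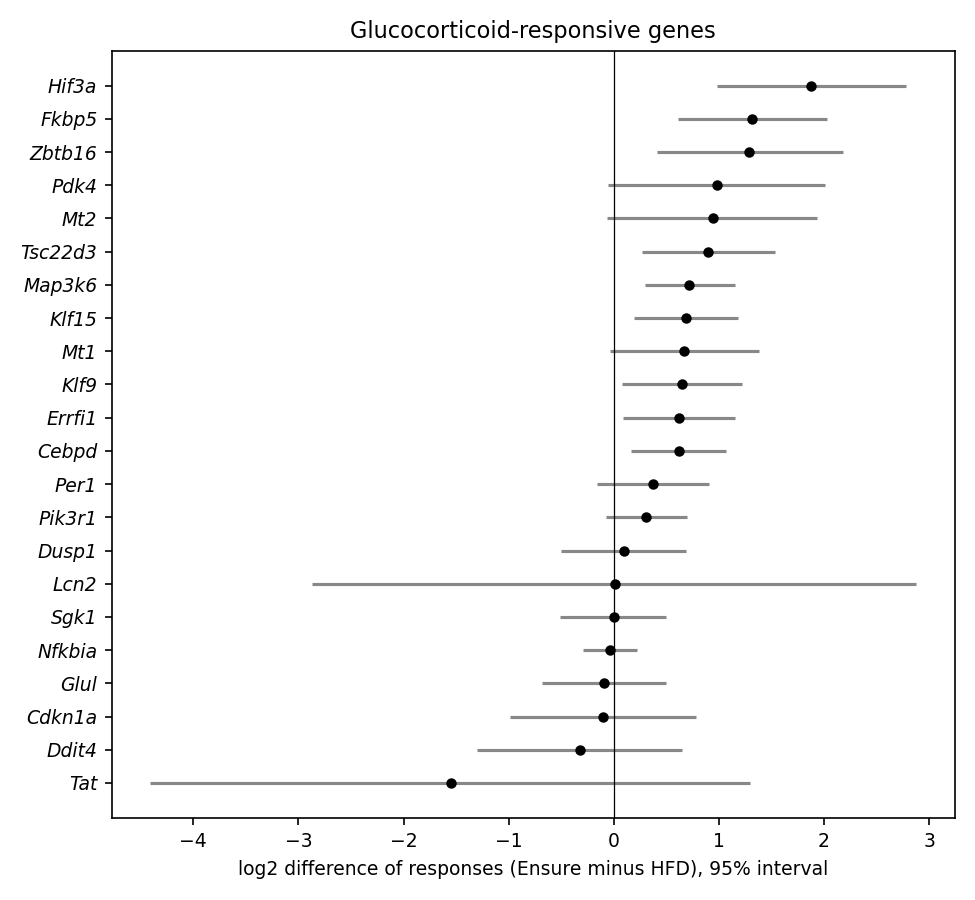
Difference of responses (Ensure minus HFD, log2) with its 95% interval for the 22 glucocorticoid-responsive genes tested, sorted by size. Points are fitted values of edgeR and bars the intervals, which lie wholly above 0 for 9 genes and below 0 for none.

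Genes of cholesterol synthesis were lower after fasting in both diets. In the cholesterol synthesis list 14 of 23 genes fell with Ensure and 5 with HFD, against the 9.77% and 1.03% of all genes given above. The median responses were -1.07 and -0.56 and the median difference -0.31. None of the 23 passed edgeR in the difference. At an unadjusted p under 0.05, 5 of 23 were lower (21.7%, against 2.92% of all genes) and 0 higher. Among them were Insig1 (-0.95 ± 0.36), the sterol sensor that retains SREBP, and Mvd (-0.77 ± 0.34), Pmvk (-0.58 ± 0.25) and Nsdhl (-0.62 ± 0.29), enzymes of the pathway. Without the 8 tract-rich or epithelium-rich libraries Insig1 was at -0.56, Mvd at -1.20, Pmvk at -0.13 and Nsdhl at -0.28, and without HFD fed 25 Nsdhl was at -0.97. The count of 5 leaned on single libraries: it was 11 without HFD fed 25, 2 without HFD fed 22 or without Ensure fed 10, and 3 without HFD fed 27, Ensure fed 1 or Ensure fasted 17.

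Insig1 was at 185, 125, 349 and 162 CPM in HFD fed, 132, 141, 160 and 89.2 in HFD fasted, 296 to 408 CPM (median 369) in Ensure fed and 161, 73.8, 132, 123 and 97.1 CPM in Ensure fasted libraries. HFD fed 25 stood within the range of Ensure fed, far above its own group, and the fasted libraries of both diets overlapped. The fatty acid synthesis list had 9 of 20 genes called lower after fasting with Ensure and 0 with HFD, against 9.77% and 1.03% of all genes tested, with medians of -0.66 and -0.41 and a median difference of -0.21. At an unadjusted p under 0.05, 2 of the 20 were lower (10.0%, against 2.92% of all genes) and 0 higher (against 4.79%). The 2 were Acly and Pgd (-0.71 ± 0.30), an NADPH-producing enzyme.

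Acly makes the acetyl-CoA from which fatty acids and sterols are built. Its level was 301, 260, 454 and 252 CPM in HFD fed, 182, 195, 189 and 121 in HFD fasted, 920 to 1534 CPM (median 1134) in Ensure fed and 213, 361, 318, 334 and 321 CPM in Ensure fasted libraries. Ensure fed libraries were above every other library, and Ensure fasted ones overlapped with HFD fed ones. Acly fell with Ensure (-1.89, adjusted p = 2.38e-05), had -0.88 with HFD (adjusted p = 0.0584), and a difference of -1.01 ± 0.29. Fasn, the fatty acid synthase, was at -1.54 with HFD and -1.70 with Ensure, with a difference of -0.16 ± 0.48; its interval ran from -1.17 to 0.84. Without the tract-rich libraries that difference was 0.29. Srebf1, the factor that drives these genes, had -0.03 ± 0.20 (interval -0.45 to 0.39) and took the other sign in some alternative fits, as did Fasn.

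Triglyceride synthesis enzymes split by gene. Agpat2, the acyltransferase lost in human lipodystrophy, fell with both diets (-1.15 with HFD, adjusted p = 0.0319, and -2.00 with Ensure, adjusted p = 3.18e-05), with a difference of -0.84 ± 0.32. Agpat9, an acyltransferase at the first step, had -1.20 ± 0.42, whereas Agpat6 (0.54 ± 0.20), Agpat3 (0.36 ± 0.15) and Lpin3 (0.47 ± 0.18) were on the higher side. Without HFD fasted 28 Agpat6 was at 0.32 and Agpat3 at 0.20. These 5 of 16 were the ones at an unadjusted p under 0.05, and the list's median difference was 0.08. By side they were 3 higher (18.8%) and 2 lower (12.5%), against 4.79% and 2.92% of all genes. Without the 8 tract-rich or epithelium-rich libraries the difference of Agpat9 was -0.10 and that of Agpat2 -0.37.

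In lipolysis, Lipe, hormone-sensitive lipase, had 0.13 ± 0.31, and Pnpla2, adipose triglyceride lipase, 0.47 ± 0.37. Leaving out 1 library gave -0.12 (without HFD fasted 28) to 0.29 for Lipe and 0.21 (without HFD fasted 28) to 0.69 for Pnpla2. Without the 8 tract-rich or epithelium-rich libraries Lipe was at 0.64 and Pnpla2 at 1.09. The G0s2 protein, which binds and blocks Pnpla2, is encoded by a gene whose difference was -0.91 ± 0.25, with 0.19 for HFD and -0.72 for Ensure (adjusted p = 0.00682). Its levels were 180, 225, 210 and 188 CPM in HFD fed, 230, 284, 217 and 187 in HFD fasted, 213 to 282 CPM (median 259) in Ensure fed and 201, 89.5, 172, 127 and 183 CPM in Ensure fasted libraries. Ensure fasted libraries were below all Ensure fed ones, while the HFD groups overlapped. G0s2 and Hilpda were the 2 of 19 lipolysis genes at an unadjusted p under 0.05 on the lower side (10.5%, against 2.92% of all genes). On the higher side were 0, against 4.79% of all genes, and the list's median was 0.13. Of 16 genes of fatty acid uptake 2 were on the lower side at that p (12.5%, against 2.92% of all genes) and 0 on the higher. Among the 2 was Fabp5, a fatty acid carrier, with -1.06 ± 0.45.

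The hypoxia-inducible list holds Hilpda and Hif3a with opposite signs, and in all 2 of 18 were higher and 2 lower at an unadjusted p under 0.05 (11.1% each way, against 4.79% and 2.92% of all genes). The others were Ndrg1 (0.85 ± 0.33), a stress-responsive gene, and Hif1a (-0.62 ± 0.22), the main hypoxia-inducible factor. The core of the hypoxia response element, ACGTGC on either strand, lay in the 250 upstream bases of 9 of 15 members with a window (60%) and of 5.63% of all genes. The Hilpda match lies at chr6:29272548-29272623 (GRCm38.p6, RefSeq, plus strand), shown because this gene had the largest HFD response of the 12, with the match in capitals.
Hilpda: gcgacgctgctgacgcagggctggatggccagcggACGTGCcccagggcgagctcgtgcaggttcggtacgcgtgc

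The fatty acid oxidation list had a median difference of 0.05. At an unadjusted p under 0.05, 2 of its 23 genes were higher (8.70%, against 4.79% of all genes) and 0 lower (against 2.92%). Among the 2 was Vnn1, a pantetheinase induced by PPARA. Vnn1 was at 12.8, 34.6, 6.85 and 35.7 CPM in HFD fed and 59.3, 99.4, 61.8 and 26.8 in HFD fasted libraries, 3.44 to 6.93 CPM (median 5.65) in Ensure fed and 46.1, 34.8, 61.4, 41.9 and 62.2 CPM in Ensure fasted ones. The Ensure fed libraries were below all others, except that 1 of them was just above HFD fed 25, and the fasted groups overlapped. The difference was 1.76 ± 0.57. Pck1, which makes the glycerol backbone from non-sugar precursors, had 1.23 ± 0.65. It was at 0.76 without HFD fed 22, 1.88 without the 5 tract-rich libraries and 2.24 without the 8 tract-rich or epithelium-rich ones. Angptl4, an inhibitor of lipoprotein lipase, had 0.17 ± 0.31. Mttp, which loads lipid onto lipoproteins and has been described on lipid droplets, was at 7.67, 5.36, 5.48 and 5.11 CPM in HFD fed and 3.65, 7.48, 8.63 and 4.11 in HFD fasted libraries. With Ensure it was at 4.93 to 8.43 CPM (median 6.56) when fed and 11.2, 30.6, 16.7, 18.9 and 17.3 CPM when fasted. Ensure fasted libraries were above all others, number 5 most of all. Its difference was 1.52 ± 0.39 in all libraries. Without the 8 tract-rich or epithelium-rich libraries it was 1.89 (adjusted p = 0.0375), and Mttp was the only gene that edgeR called in that fit. HFD fasted 23 and 28 were then the only libraries of their group.

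**Figure D4:**
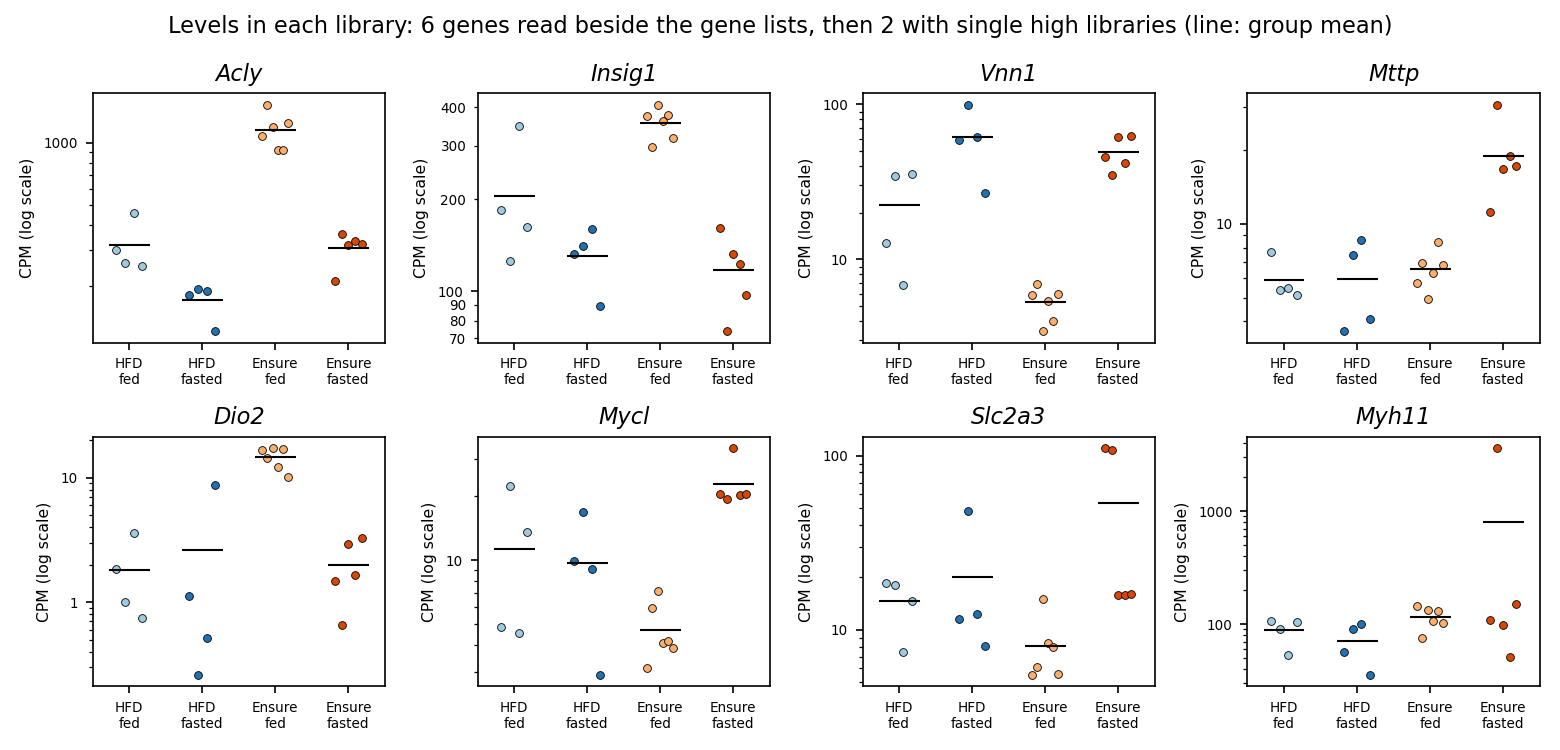
Levels in CPM, on log axes, of 8 genes in the 19 libraries by group. Points are libraries and lines group means. Ensure fed libraries are the highest in Acly and Dio2, Ensure fasted libraries the highest in Mttp, and the high group mean of Myh11 after fasting with Ensure comes from 1 library, at 3580 CPM.

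Of 22 insulin to FoxO genes 3 were higher (13.6%) and 1 lower (4.55%) at an unadjusted p under 0.05, against 4.79% and 2.92% of all genes: the transcription factors Foxo1 (0.63 ± 0.28), Foxo3 (0.81 ± 0.35) and Foxo4 (0.58 ± 0.20), and Pik3cb. HFD fasted 28 was the lowest library of its group for all 3 factors, and without it their differences were 0.36, 0.46 and 0.38. Igf1, the growth factor, had -0.93 ± 0.28, with an Ensure response of -1.04 (adjusted p = 0.00108). Leptin (Lep), the satiety hormone, fell with Ensure (-1.34, adjusted p = 0.00821) and had -1.18 with HFD (adjusted p = 0.138). The difference was -0.15 ± 0.48, with an interval from -1.16 to 0.85. Adiponectin (Adipoq) had 0.39 ± 0.36 and the desaturase Scd1 0.19 ± 0.46, with ranges of 0.15 to 0.50 and -0.14 to 0.51 on leaving out 1 library, the lowest without HFD fasted 28 and the highest without HFD fasted 24.

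Dio2, which activates thyroid hormone, was low except in fed Ensure libraries: 1.86, 0.998, 3.60 and 0.744 CPM in HFD fed, 1.12, 0.261, 0.513 and 8.66 in HFD fasted, 10.1 to 17.2 CPM (median 15.6) in Ensure fed and 1.47, 0.650, 2.95, 1.65 and 3.25 CPM in Ensure fasted libraries. Ensure fed libraries were above all others, and HFD fasted 28 was the only other one to come near. Its difference was -3.41 ± 1.07, and -1.41 without HFD fasted 28. The uncoupling protein Ucp1 was at or below 3.22 CPM in every library other than Ensure fed 1, at 18.4 CPM, and its difference of -2.08 ± 2.15 was 2.17 without that library. Mycl, a MYC family factor, had 2.48 ± 0.65. Its Ensure fasted libraries, at 20.4, 19.4, 33.5, 20.2 and 20.4 CPM, were all above the Ensure fed ones, at 3.11 to 7.13 CPM (median 4.14), while HFD libraries ran from 2.90 to 22.3 CPM without a split by feeding.

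On the list of endoplasmic reticulum and amino acid stress stand genes that fold secreted proteins. Pdia4 (0.60 ± 0.15) and Pdia6 (0.55 ± 0.16) are disulfide isomerases, and Ero1lb (0.54 ± 0.20, and 0.19 without the 8 libraries) is an oxidase that serves them. These were the 3 of 24 higher at an unadjusted p under 0.05 (12.5%, against 4.79% of all genes). On the lower side were 0, against 2.92% of all genes, and the list median was 0.23. DESeq2 called Pdia4 (adjusted p = 0.0333). Of the 19 core clock genes Per3 (0.61 ± 0.26) was higher and Cry1 (-0.65 ± 0.25) lower at an unadjusted p under 0.05, 5.26% each way against 4.79% and 2.92% of all genes. Without HFD fed 22 Per3 was at 0.38. The time of day of sampling is not in the labels. All 24 interferon-responsive genes had a positive difference (median 0.49), as had 54.5% of all genes tested. At an unadjusted p under 0.05 in edgeR was 1 of them (4.17%, against 4.79% of all genes on the higher side), Rsad2 at 0.81, and 0 were called.

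In oxidative phosphorylation 32 of 37 genes were negative (86.5%, against 45.5% of all genes), with a median of -0.11. At an unadjusted p under 0.05 were 2 (5.41%, against 2.92%): Uqcrc2 of complex III (-0.29 ± 0.10, and -0.13 without the 8 libraries) and Atp5g3 of the ATP synthase (-0.32 ± 0.13). Pdhx, a component of pyruvate dehydrogenase, fell with both diets (-0.53 with HFD, adjusted p = 0.0204; -1.07 with Ensure, adjusted p = 3.40e-06). It was at 37.4, 44.2, 48.1 and 39.6 CPM in HFD fed, 29.6, 31.2, 28.4 and 28.3 in HFD fasted, 65.4 to 79.3 CPM (median 70.2) in Ensure fed and 33.7, 27.0, 37.1, 36.3 and 35.7 CPM in Ensure fasted libraries. The fasted groups overlapped and the fed Ensure libraries stood above all others. DESeq2 called its difference of -0.54 ± 0.13 (adjusted p = 0.0163). The tubulin gene Tuba1b, whose near-identical copies make its count uncertain, had -0.88 and -1.54 for the 2 responses and -0.67 ± 0.16 for the difference (DESeq2 adjusted p = 0.0143).

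Beyond these, 2 lists were written after the values had been seen, and so are given as descriptions. Their members were chosen with the values known, so their counts are no evidence of a direction. In ribosome biogenesis 38 of 40 genes had a negative difference, with medians of -0.28 for the difference, -0.04 for HFD and -0.27 for Ensure. Pak1ip1 (-0.84 ± 0.20), Tbl3 (-0.58 ± 0.14), Ltv1 (-0.51 ± 0.15) and Ddx56 (-0.40 ± 0.11), factors that build ribosomal subunits, are examples that DESeq2 called. Pak1ip1 was at 51.0, 40.8, 70.2 and 45.6 CPM in HFD fed, 40.7, 41.0, 40.7 and 63.3 in HFD fasted, 73.4 to 81.9 CPM (median 80.8) in Ensure fed and 35.2, 39.7, 40.2, 42.5 and 41.1 CPM in Ensure fasted libraries. Only the Ensure fed libraries stood apart, above all others. In mitochondrial import and quality control 21 of 22 genes were negative (95.5%, against 45.5% of all genes), with medians of -0.29, -0.16 and -0.52. Tomm40, the outer membrane import channel (-0.43 ± 0.12), Ppif, a regulator of the permeability pore (-0.65 ± 0.16), Atad3a, an inner membrane ATPase (-0.60 ± 0.16), and Mrpl12, of the mitochondrial ribosome (-0.41 ± 0.12), were called by DESeq2. The 37 cytosolic ribosomal proteins tested, on an earlier list, had 27 negative differences (73.0%, against 45.5% of all genes) and a median of -0.15. At an unadjusted p under 0.05 were 0 of them. Near-identical copies of these genes make their counts uncertain. Because the lists were chosen in different ways, their counts cannot be set against each other.

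**Figure D5:**
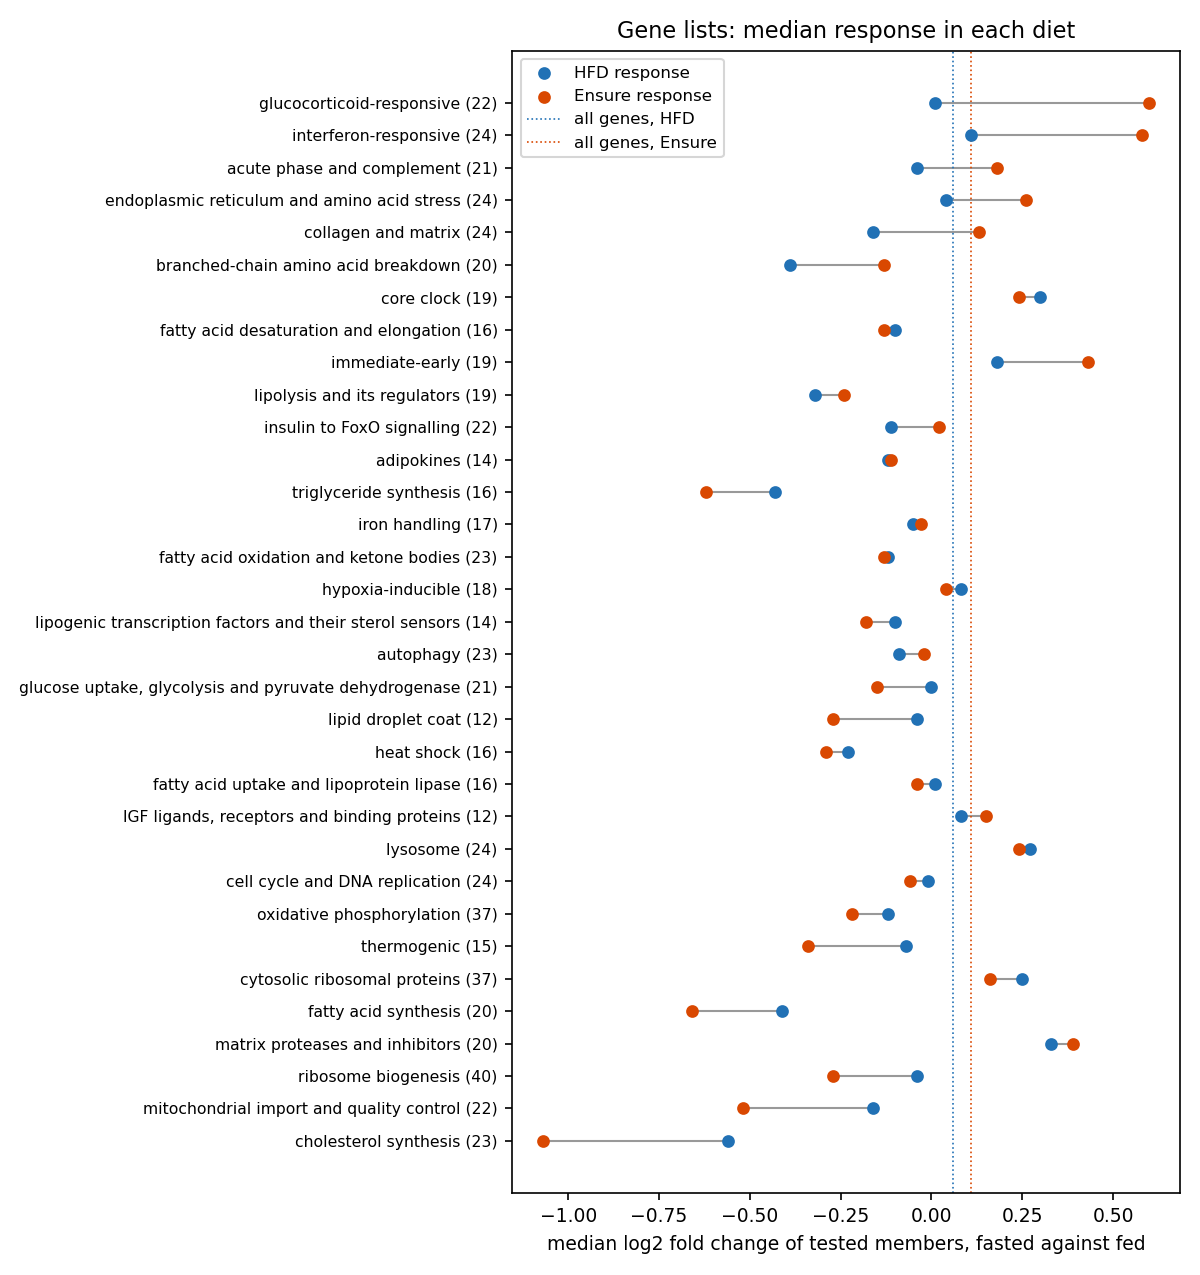
Median log2 fold change of fasted against fed libraries for the tested members of each gene list other than cell type markers, with HFD (blue) and with Ensure (orange). The number tested is in brackets, dotted lines mark the medians of all genes tested (0.06 and 0.11), and lists are sorted by their median difference. The glucocorticoid-responsive list is at the top, with 0.01 and 0.60, and cholesterol synthesis at the bottom, with -0.56 and -1.07.

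Markers of some other cell types were high in single libraries. Of 11 smooth muscle markers 7 were higher at an unadjusted p under 0.05 (63.6%, against 4.79% of all genes), with a median difference of 1.92. DESeq2 called 0 of the 11 but gave 7 of them, Cnn1 and Myh11 included, no adjusted p. Cnn1 and Myh11, contractile proteins, had 5.03 ± 1.79 and 3.11 ± 1.28, and 0.53 and 0.08 without Ensure fasted 5. The 11 genes summed to 963 to 1076 CPM in HFD fed, 649 to 1214 in HFD fasted, 994 to 1224 in Ensure fed and 983 to 11169 in Ensure fasted libraries, with none at 0 in any group. The count was 0 without Ensure fasted 5, where Myh11 reached 3580 CPM, and 4 without HFD fed 27, HFD fasted 23, HFD fasted 28 or Ensure fed 9. Slc2a3, a glucose transporter, had 2.27 ± 0.91 and was at 110, 108, 15.8, 15.9 and 16.1 CPM in Ensure fasted libraries. The 2 high values belong to the libraries with most tract RNA, numbers 2 and 5. Without the 5 tract-rich libraries its difference was 1.8, and without the 8 tract-rich or epithelium-rich ones 1.91. Of the other cell type lists, macrophage, T cell, B cell, mast cell, endothelial, mesothelial and epithelial markers had 0 members at an unadjusted p under 0.05 in either direction. Stromal progenitor markers had 2 of 14 on the higher side (14.3%) and skeletal muscle markers 1 of 8 (12.5%), against 4.79% of all genes. Lipid-associated macrophage markers had 1 of 15 lower (6.67%) and epididymis and sperm markers 2 of 12 (16.7%), against 2.92% of all genes. Neutrophil markers had 2 of 11 on the higher side (18.2%), and their sum was 56.7 to 366 CPM in Ensure fasted and 60.5 to 144 in Ensure fed libraries.

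Single libraries also bear on genes named above. HFD fasted 28 was the highest of its group for Dio2, Igf1, Mt1 and Plk3 and the lowest for Klf9, Zbtb16 and Foxo1, and in limma voom it had the smallest quality weight, 0.0907. Without the 5 tract-rich libraries all 12 genes of smallest p and 7 of the 9 glucocorticoid genes stayed at an unadjusted p under 0.05, and with lane as a term 12 and 8 did. Both sets had been picked by their p in the full set of libraries, so these counts follow in large part from that choice. Ensure fed 1 and Ensure fasted 17 are the only libraries of their condition on lanes 5 and 6.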

How the data were processed

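Whole perigonadal adipose tissue of 19 libraries was extracted with RNeasy, selected for poly-A RNA and sequenced on a HiSeq2000 after a TruSeq library kit, per the labels' protocols. The authors deposited raw read counts per gene, 1 table per library. The submitters' processing notes name bcl2fastq 1.8.4, TopHat2 2.1, HTSeq 0.6.1 and mm9; no source used here gives their settings or the strand. Lines that name no gene were left out: 13.01% to 17.32% of each library had no feature, 0.7% to 0.89% was ambiguous and 20.67% to 27.7% not uniquely aligned. No 2 libraries of a group agreed within sampling noise (37 pairs, chi-square per gene from 7.04 to 288).

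Of 24348 genes, 16015 passed filterByExpr (minimum count 10) and were fitted in edgeR 4.0.16 (R 4.3.3) with TMM factors, 1 mean per group over all 4 groups and the quasi-likelihood F test. The contrast was Ensure fasted minus fed, minus HFD fasted minus fed, with Benjamini-Hochberg adjustment over all genes tested. A gene was called at an adjusted p under 0.05. Standard errors (SE) are the log2 value divided by the root of F, and CPM uses the TMM-scaled library size. The code was tested on simulated counts. Alternatives were DESeq2 1.42.0, limma 3.58.1 voom, other scalings and filters, lane as a term, and subsets of libraries. DESeq2 gave no adjusted p for 5641 genes under its own filter.

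Genes were named by rule: genes called in the difference, of which there were 0; the 6 higher and 6 lower with the smallest p at a mean of at least 1 CPM; called list members, also 0; and 16 genes whatever their values (Acly, Adipoq, Angptl4, Fasn, Fkbp5, Klf15, Lep, Lipe, Pck1, Pdk4, Per1, Pnpla2, Scd1, Srebf1, Tsc22d3 and Ucp1). All other genes were named after their values were seen. Values of a few members of the lists are left out. The members and lists (771 symbols in 45 lists, 765 of them in the files) were chosen with earlier results of these data known. Promoter windows come from RefSeq (GRCm38.p6), matched by symbol, and carry none of the coordinates of the mm9 counts.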

Additional observations from a re-analysis of the deposited data

Results flagged for a closer look

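A library was singled out for a gene where its gap to the nearest library of its group, divided by the group's range, was above the 95% critical value of Dixon's test. Of 316 group levels of named genes 37 met this, and chance alone flags about 1 in 20, which is 16. Levels are in CPM, with the range of the other libraries of the group beside them.

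HFD fasted 28 met it for 9 genes, HFD fed 25 for 6 and Ensure fasted 5 for 5, and each other library for 0 to 3. HFD fasted 28 stood above the rest of its group in Atp5g3 (255 against 216 to 222), Dio2 (8.66 against 0.261 to 1.12) and Igf1 (404 against 233 to 251). The same held, above the rest, for Mvd (13.0 against 7.00 to 7.51) and Pak1ip1 (63.3 against 40.7 to 41.0). HFD fasted 28 stood below the rest of its group in Acly (121 against 182 to 195), Foxo1 (59.8 against 114 to 123) and Foxo4 (46.2 against 67.6 to 68.2). The same held, below the rest, for Ndrg1 (164 against 242 to 258). HFD fed 25 stood above the rest of its group in Ddx56 (40.9 against 35.3 to 35.9), Fabp5 (91.7 against 64.5 to 66.8) and Hif1a (229 against 127 to 143). The same held, above the rest, for Lpin3 (22.0 against 15.7 to 16.3), Pmvk (58.9 against 33.5 to 37.6) and Sgk1 (74.3 against 62.2 to 62.7).

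Ensure fasted 5 stood above the rest of its group in Cnn1 (771 against 3.03 to 11.0), Ddx56 (33.8 against 27.5 to 28.8) and Myh11 (3580 against 51.3 to 152). The same held, above the rest, for Tomm40 (40.4 against 33.3 to 34.4). Ensure fasted 5 stood below the rest of its group in Agpat9 (30.5 against 50.7 to 57.7). Ensure fasted 2 stood above the rest of its group in Ucp1 (3.22 against 0.0507 to 0.200). Ensure fasted 2 stood below the rest of its group in Acly (213 against 318 to 361) and Atad3a (21.8 against 24.2 to 25.0). Ensure fed 16 stood below the rest of its group in Map3k6 (42.1 against 55.5 to 63.0) and Pak1ip1 (73.4 against 79.5 to 81.9). Ensure fasted 7 stood above the rest of its group in Mbd1 (106 against 81.4 to 84.7) and Mycl (33.5 against 19.4 to 20.4). Ensure fed 10 stood above the rest of its group in Pmvk (118 against 86.5 to 93.7) and Slc2a3 (15.0 against 5.52 to 8.44). HFD fasted 24 stood above the rest of its group in Map3k6 (65.7 against 44.2 to 47.4) and Slc2a3 (48.0 against 8.11 to 12.3). Ensure fed 1 stood above the rest of its group in Ucp1 (18.4 against 0.0513 to 0.362). Ensure fed 9 stood below the rest of its group in Lhfpl2 (317 against 415 to 454). Ensure fasted 17 stood above the rest of its group in Cebpd (32.6 against 27.6 to 29.0). HFD fed 21 stood above the rest of its group in Mttp (7.67 against 5.11 to 5.48). HFD fed 22 stood above the rest of its group in Map3k6 (72.6 against 50.4 to 52.3). HFD fed 27 stood above the rest of its group in Ucp1 (2.46 against 0.210 to 0.580).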

How the results depend on the processing

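With edgeR the difference of responses had 0 genes called in each of the 19 fits that left out 1 library, with either other scaling, with either other filter, with lane as a term and without the 5 tract-rich libraries. Without the 8 tract-rich or epithelium-rich libraries there was 1 gene higher and 0 lower. DESeq2 called 23 higher and 42 lower, and limma voom with quality weights 876 and 294. Alternatives chosen after seeing the data were limma voom without weights (0), voom with weights and DESeq2 size factors (492 higher, 449 lower), and lane together with the removal of tract-rich libraries (0). The cause of the gap between the tools was not tested.

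The 1234 genes at an unadjusted p under 0.05 were 4243 with weighted voom, 3804 with weighted voom and DESeq2 size factors, 762 with lane and 2252 without the 8 libraries. Leaving out 1 library gave 866 to 1694. The HFD count of 195 was 633 with DESeq2, 2974 and 2128 with the weighted voom fits, 62 with lane, 910 without the 8 libraries, and 14 with lane and without the tract-rich libraries. Leaving out 1 library gave 23 (without HFD fed 25) to 399 (without Ensure fasted 5). It was also moved by over 1.5 times without HFD fed 21 (85), 22 (72) or 27 (100), HFD fasted 23 (59), 24 (63) or 28 (63), and Ensure fed 9 (120), 12 (121), 16 (121) or 18 (114). The Ensure count of 3255 was 5638 and 5622 with the weighted voom fits, 760 with lane, 1145 without the tract-rich libraries, 772 without the 8 and 305 with lane and without the tract-rich ones. Leaving out 1 library gave 2288 to 4542.

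The cholesterol synthesis count of 5 was 17 and 19 with the weighted voom fits and 8 with voom without weights, and 2 to 11 without 1 library. The smooth muscle count of 7 was 2 with DESeq2, 1 in each of the 3 voom fits, 0 with lane, 0 without the tract-rich libraries, 3 without the 8, 0 with lane and without the tract-rich ones, and 0 to 8 without 1 library. Among the 79 named genes, all uncalled in edgeR, the sign of the difference differed from the reported one in at least 1 alternative for Fasn, Lep, Lipe, Per1, Scd1, Sgk1, Srebf1 and Ucp1. DESeq2 called 25 of the 79 and weighted voom 50, against 0.406% and 7.31% of all genes tested. All but 28 of the 79 were named after their values were seen, and 12 of those 28 for small p. These 2 counts therefore follow in large part from how the genes were chosen. No paired analysis was possible because the groups share no replicate numbers. With 4 libraries in each HFD group, 57.8% of genes have an interval within 1 log2 unit of 0, and in the other genes the interval reached beyond it.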

Other observations

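Some gene groups that the account above does not cover are given here as values. In the breakdown of branched-chain amino acids, 18 of 20 genes had a positive difference (90.0%, against 54.5% of all genes). Median responses were -0.39 with HFD and -0.13 with Ensure, and 0 were at an unadjusted p under 0.05 in edgeR, in either direction. Of 24 collagen and matrix genes 21 were positive (87.5%, against 54.5% of all genes), with medians of -0.16 and 0.13. At that p on the higher side were 2 of them (8.33%, against 4.79% of all genes). All 10 B cell markers tested had a negative difference, against 45.5% of all genes, with medians of 0.73 with HFD and 0.07 with Ensure. At that p were 0 of them. Their summed level was 41.3 to 79.4 CPM in HFD fed, 64.2 to 123 in HFD fasted, 35.4 to 54.1 in Ensure fed and 29.7 to 71.2 in Ensure fasted libraries. Mast cell markers summed to 119 to 303 CPM in HFD fed and 132 to 544 CPM in HFD fasted libraries, and to 51.6 to 86.4 and 41.9 to 167 CPM in the 2 Ensure groups. The members of these lists were not tested as sets.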
